A study of Homo sapiens with 6 samples.

Results

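The genes described here are 38 named targets of p53, the transcription factor that answers DNA damage and other stress. They were chosen by name, and all 38 were found in the deposited table of 50868 genes. A gene was tested where its counts averaged 10 or more across the 6 libraries, which held for 36 of the 38 and for 15953 genes in all. TRIM22 and TNFRSF10A fell under that limit.

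RNA was taken from HEK-293T cells kept for 12 h with 10 µM nitidine chloride, a plant alkaloid, or for the same 12 h with its solvent DMSO, and mRNA libraries were sequenced. Each group had 3 libraries, labelled wild type. HEK-293T is a single transformed human embryonic kidney line that carries the SV40 large T antigen and adenovirus E1 genes, so both groups share these. The labels do not say whether the libraries came from separate cultures, so p-values measure the spread between these libraries, which may be technical.

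p53 binds paired half-sites in DNA near its targets and raises their transcription. The products halt the cell cycle, repair DNA, change metabolism or start cell death, and MDM2, itself a target, marks p53 for destruction. Large T antigen binds p53 and is known to block this activation, so p53 is abundant but largely inactive in such cells. Many of these genes also respond to other stress pathways.

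The promoter letters of a few members are shown first because p53 is known to act through such sites. RefSeq promoter windows (build GRCh38.p14, from 250 bases before to 50 after a transcript start) were held for 31 of the 38 members, in 43 windows. That start can differ from the gene's start in the deposited table. Of the letters printed below, only those of RAP2B lie before the gene's start in that table, and the others lie inside the gene. No window was held for PHLDA3, GADD45A, TP53INP1, TNFRSF10A, TNFRSF10B, RRM2B and TRIM22. The windows were searched for the p53 half-site consensus of 10 bases, which reads the same on both strands, and for 2 half-sites at most 13 bases apart with at most 3 mismatches in all and the central C and G of each kept. Capitals mark each matched half-site, printed 5′ to 3′ on the gene's strand. The search and the sites shown were chosen with the matches and the genes' values in view.

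DDB2, chr11:47214979-47214999, plus strand: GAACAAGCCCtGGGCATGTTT
MDM2, chr12:68808874-68809001, plus strand: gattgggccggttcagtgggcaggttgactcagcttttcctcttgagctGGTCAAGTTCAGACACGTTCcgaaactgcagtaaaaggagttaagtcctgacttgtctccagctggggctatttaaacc
AEN, chr15:88621306-88621325, plus strand: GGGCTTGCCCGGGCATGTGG
FDXR, chr17:74872996-74873025, minus strand: GGGCGGGCCCgggcaggagcGGGCTTGCCC
PLK2, chr5:58460196-58460218, minus strand: AGACTTGCTTcccGGCCACGCGC
RAP2B, chr3:153162076-153162225, plus strand: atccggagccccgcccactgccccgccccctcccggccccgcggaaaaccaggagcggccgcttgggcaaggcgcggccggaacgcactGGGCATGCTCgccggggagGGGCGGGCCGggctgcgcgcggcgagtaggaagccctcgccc

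The DDB2 pair had 0 mismatches and a spacer of 1 base. The pairs at MDM2, AEN and FDXR had 2 mismatches each, and those at PLK2 and RAP2B had 3. A further pair, with 2 mismatches, a spacer of 0 bases and a perfect half-site, lay at FAS, which did not pass the test given below. Others lay at ZMAT3 and GADD45B, with 3 mismatches each. The genes printed above all rose in that test, as did ZMAT3 and GADD45B. Of all tested members 66.7% rose, and of all tested genes 24.7%. The printed genes were chosen with their values in view, and a link between site and rise was not tested. A perfect half-site was found in 6 of 31 members (19.4%), against 8.06% of the 27305 genes with a window, and a pair in 9 of 31 (29%), against 15.3%. Members had more windows per gene than genes at large, and a half-site stood in 14% of their windows against 6.63% of all windows. For comparison, the letters TGATGNAA, a composite element bound by ATF4 with its partners, were found on either strand in 1 member (3.23%), PLK3, against 4.46% of all genes. Members were listed by name as p53 targets, so a higher share of p53 sites among them may follow from that choice. Neither these shares nor their contrast with the ATF4 element were tested. A match describes letters in this window and is not shown to be a bound site.

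After nitidine chloride the p53 targets were mostly higher. In edgeR's quasi-likelihood test, p-values were adjusted over all tested genes by Benjamini-Hochberg and the threshold was 0.05. On that rule 24 of the 36 rose, 1 fell and 11 did not pass. Thus 66.7% of the members rose, where 24.7% of all tested genes rose and 27.0% fell, 51.7% together. The median log2 fold change was 0.43 for the members and 0.01 for all tested genes. The rise was at least 2-fold for 6 members, PHLDA3, SERTAD1, PLK2, PLK3, PHLDA1 and TP53I3, while 3.87% of all tested genes rose that far. Libraries of the groups did not overlap for 28 members, 26 of them higher and 2 lower, against 60.7% of all tested genes (29.7% higher and 31.0% lower). In such bulk RNA, a change of RNA in every cell and a change in the share of cells that make it cannot be told apart.

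Library totals were 13273432 to 15620937 counts with nitidine chloride and 12688093 to 16357992 with DMSO. All 7 genes checked for the HEK-293T line (PAX2, LHX1, KRT8, KRT18, VIM, NEFL and NEFM) were detected, with a summed FPKM of 134.1 to 165.6 with nitidine chloride and 106.3 to 132.9 with DMSO. The 9 markers of other cell types summed to 5.29 to 5.73 FPKM with nitidine chloride and 2.88 to 3.30 with DMSO, mostly COL1A1. CD3E and HBB were at 0 in every library, and PTPRC, PECAM1 and CDH5 had 1 to 4 counts in all. Mitochondrial genes took 3.39 to 3.46% of counts with nitidine chloride and 3.81 to 3.94% with DMSO. The part of these markers and shares in the results was not tested. The scale matters for small changes: with scaling by library total alone, the median of all tested genes moved to 0.12.

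**Figure D1:**
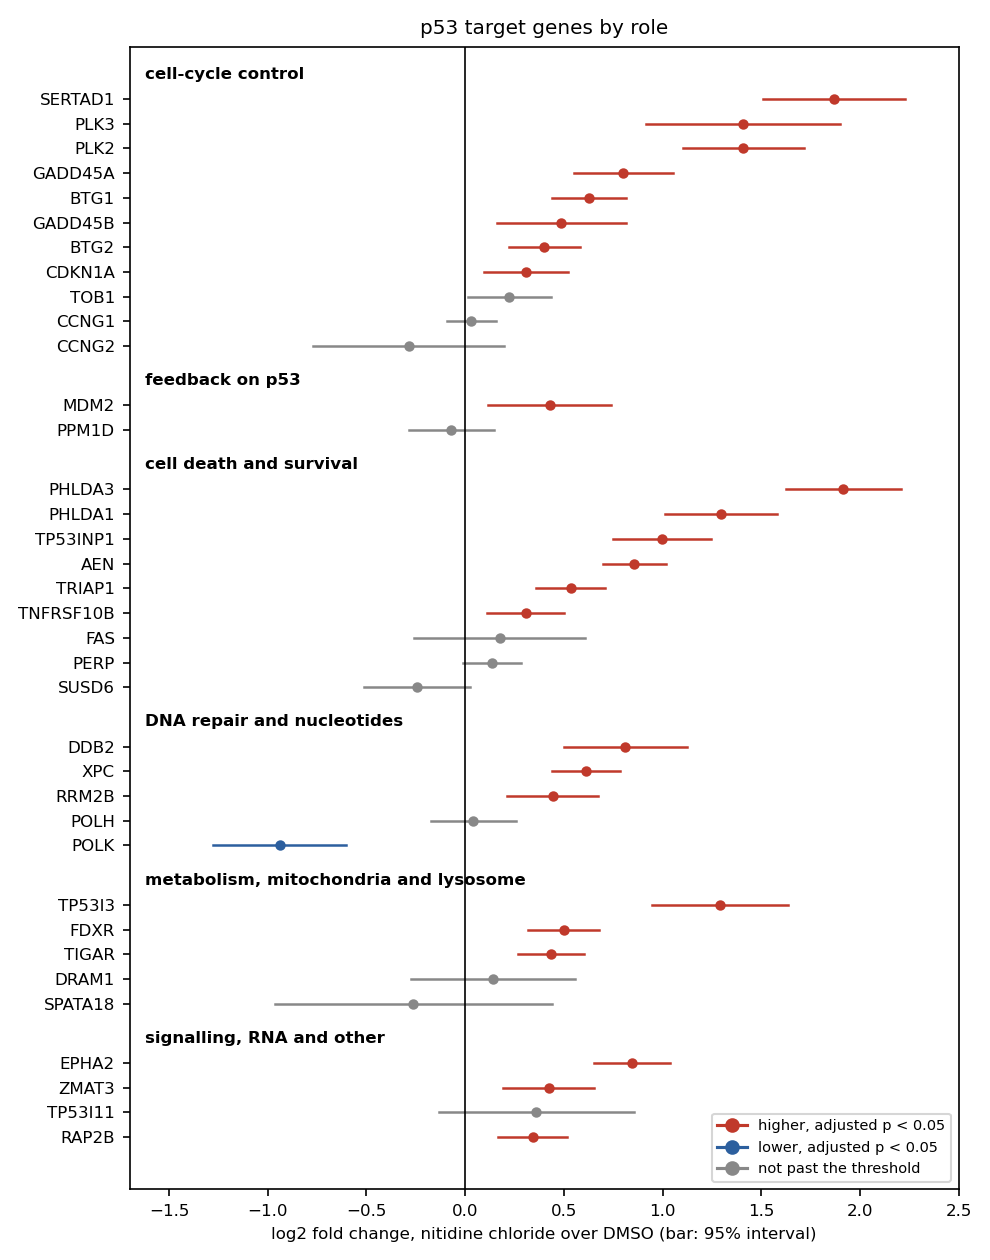
The plot of change by role gives the log2 fold change, nitidine chloride over DMSO, of the 36 tested p53 target genes, grouped by role (bars are 95% intervals, n = 3 libraries per group). Red points rose, the blue point, POLK, fell, and grey points did not pass the threshold.

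In the cell-cycle group 8 of the 11 tested genes rose, 3 did not pass and 0 fell. The median log2 fold change of the group was 0.49. For this and the other role groups the background is all tested genes, of which 24.7% rose and 27.0% fell. Role groups also differ in genomic span, with medians from 5.76 kb for cell-cycle genes to 54.31 kb for genes that feed back on p53. SERTAD1, which encodes a CDK4-binding protein known to promote the cycle, had 21.8, 26.1 and 19.5 CPM with nitidine chloride and 5.67, 7.11 and 5.65 CPM with DMSO. All treated libraries lay far above the DMSO libraries. CPM are counts relative to the library total, as edgeR scales it with TMM. Its log2 fold change was 1.87 ± 0.15 (SE; edgeR adjusted p = 4.19e-05).

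PLK2 and PLK3 encode polo-like kinases that respond to stress. PLK2 had 14.7, 17.1 and 14.1 CPM with nitidine chloride and 5.10, 6.05 and 6.09 CPM with DMSO. PLK3 had 6.15, 6.95 and 8.34 CPM with nitidine chloride and 1.97, 2.77 and 3.24 CPM with DMSO. For both paralogs every treated library was above every DMSO library. Both log2 fold changes were 1.41, with an SE of 0.13 for PLK2 and 0.21 for PLK3, and edgeR's adjusted p was 7.93e-05 and 9.6e-04 in that order.

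CDKN1A encodes p21, the CDK inhibitor that is the best-known p53 target. Its levels were 32.4, 37.1 and 31.5 CPM with nitidine chloride and 28.1, 26.5 and 26.8 CPM with DMSO. The groups did not overlap, but the gap between them was narrow, and 71.2% of all tested genes had a lower fold change than CDKN1A. The log2 fold change was 0.31 ± 0.09 (SE), and edgeR's adjusted p was 0.0231. The call was lost without DMSO replicate 2 (adjusted p = 0.075), without DMSO replicate 3 (0.0726) and with the replicate number as a block (0.0531).

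GADD45A and GADD45B encode small stress proteins that bind cell-cycle and MAP kinase regulators. GADD45A averaged 54.8 ± 6.36 CPM with nitidine chloride and 31.4 ± 2.56 CPM with DMSO (SD, n = 3 each), a log2 fold change of 0.80 ± 0.11 (SE). GADD45B averaged 19.0 ± 2.72 CPM with nitidine chloride and 13.6 ± 1.66 CPM with DMSO, a log2 fold change of 0.49 ± 0.14. The edgeR adjusted p was 5.5e-04 for GADD45A and 0.0207 for GADD45B. That of GADD45B was 0.0715 without DMSO replicate 2, 0.0664 without DMSO replicate 3, 0.052 without nitidine chloride replicate 2 and 0.051 with a replicate block.

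BTG1, BTG2 and TOB1 belong to one family of antiproliferative proteins that recruit the CCR4-NOT deadenylase to mRNA. BTG2 had 49.8, 46.9 and 44.4 CPM with nitidine chloride and 36.9, 34.7 and 35.3 CPM with DMSO, with all treated libraries higher. Its log2 fold change was 0.40 ± 0.08, with an edgeR adjusted p of 0.00346. BTG1 rose with 0.63 ± 0.08 (adjusted p = 4.35e-04). TOB1 averaged 44.9 ± 3.73 CPM with nitidine chloride and 38.4 ± 2.21 CPM with DMSO, and its groups did not overlap, but its log2 fold change of 0.22 ± 0.09 did not pass (adjusted p = 0.0719). TOB1 passed with scaling by library total (0.014) and without nitidine chloride replicate 3 (0.0303).

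The cyclin G genes did not pass. CCNG1, whose product recruits a phosphatase to MDM2, averaged 97.5 ± 2.08 CPM with nitidine chloride and 95.4 ± 0.97 CPM with DMSO, with a 95% interval of the log2 fold change from -0.09 to 0.16. CCNG2 had 34.0, 32.7 and 28.3 CPM with nitidine chloride and 25.7, 44.2 and 45.8 CPM with DMSO. Its DMSO replicate 1 lay below all treated libraries and the other two DMSO libraries above them. The log2 fold change was -0.29 ± 0.21 (edgeR adjusted p = 0.284), and without DMSO replicate 1 it was -0.51 with an adjusted p of 0.00881.

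Of the 2 genes that feed back on p53, MDM2 was higher and PPM1D did not pass. MDM2, the ubiquitin ligase of p53, had 50.9, 42.9 and 52.2 CPM with nitidine chloride and 29.9, 41.3 and 37.1 CPM with DMSO. Nitidine chloride replicate 2 and DMSO replicate 2 almost met. The log2 fold change was 0.43 ± 0.13 (SE), with an edgeR adjusted p of 0.0295. The call was lost when DMSO replicate 1 (adjusted p = 0.0731), DMSO replicate 3 (0.064), nitidine chloride replicate 1 (0.0791) or nitidine chloride replicate 3 (0.0809) was left out, and with a replicate block (0.0557). PPM1D, the phosphatase WIP1 that switches off damage signalling, averaged 35.0 ± 2.74 CPM with nitidine chloride and 36.7 ± 2.49 CPM with DMSO, with an interval of the log2 fold change from -0.29 to 0.15.

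**Figure D2:**
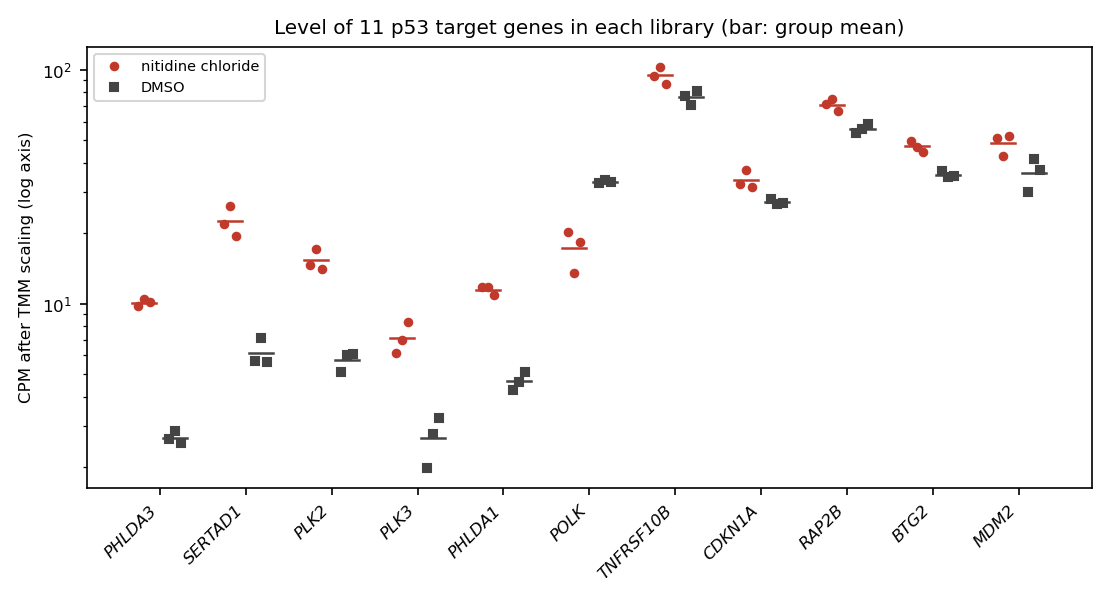
The plot of levels by library gives CPM after TMM scaling on a log axis for the 11 members named by rule. Points are libraries, bars are means of 3, and nitidine chloride is left of DMSO. CCNG2 and TP53I11, also given by library in the text, are not drawn. PHLDA3, SERTAD1, PLK2, PLK3 and PHLDA1 stand apart widely, whereas MDM2 and CDKN1A have a narrow gap and POLK lies lower with nitidine chloride.

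The cell death and survival group had 9 tested genes, of which 6 rose and 3 did not pass. PHLDA3, which encodes an inhibitor of the kinase AKT, had 9.72, 10.4 and 10.1 CPM with nitidine chloride and 2.63, 2.85 and 2.54 CPM with DMSO. Replicates lay close together and the groups far apart. This was the highest fold change of all members, 1.92 ± 0.13 on the log2 scale, with an edgeR adjusted p of 1.24e-05, and 99.6% of all tested genes had a lower one. The related PHLDA1, a pleckstrin homology protein that is known to promote death in several cell types, had 11.8, 11.8 and 10.9 CPM with nitidine chloride and 4.27, 4.62 and 5.08 CPM with DMSO. Its treated libraries were all higher, with a log2 fold change of 1.3 ± 0.12 and an edgeR adjusted p of 8e-05.

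Of the death receptors, TNFRSF10B rose and FAS did not pass. TNFRSF10B, the TRAIL receptor DR5, had 93.9, 102.7 and 87.0 CPM with nitidine chloride and 77.4, 70.8 and 81.0 CPM with DMSO. The treated libraries were all higher, by a small margin, and the log2 fold change was 0.31 ± 0.08 with an edgeR adjusted p of 0.0173, which was 0.0627 without DMSO replicate 2 and 0.0539 with a replicate block. FAS, the receptor of FAS ligand, averaged 6.26 ± 0.84 CPM with nitidine chloride and 5.56 ± 1.07 CPM with DMSO, with an interval of the log2 fold change from -0.26 to 0.61. TNFRSF10A, the TRAIL receptor DR4, was listed at 0 counts in all 6 libraries, where 3 counts would be 0.19 to 0.216 CPM with nitidine chloride and 0.19 to 0.247 CPM with DMSO. That limit covers counting error only.

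AEN, a nuclease of the apoptotic nucleus, averaged 136.8 ± 7.43 CPM with nitidine chloride and 75.5 ± 3.49 CPM with DMSO, a log2 fold change of 0.86 ± 0.07 (edgeR adjusted p = 3.45e-05). TP53INP1, a stress protein that promotes autophagy and p53 activity, rose by 0.998 ± 0.11 on the log2 scale (adjusted p = 1.63e-04). TRIAP1, which protects cells from apoptosis, rose with 0.53 ± 0.07 (adjusted p = 6.47e-04). The genes that rose in this group thus include both death and survival factors. PERP, a membrane protein linked to apoptosis and cell junctions, averaged 145.0 ± 7.83 CPM with nitidine chloride and 131.9 ± 3.08 CPM with DMSO, with a log2 fold change of 0.14 ± 0.06 that did not pass (edgeR adjusted p = 0.106) but did with scaling by library total (0.00846). SUSD6, a sushi domain membrane protein, had a value of -0.24 ± 0.11, which did not pass (adjusted p = 0.111) although its groups did not overlap.

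DNA repair genes were split, with 3 of 5 higher, 1 lower and 1 not passing. DDB2 and XPC, which find ultraviolet lesions for nucleotide excision repair, rose with 0.81 ± 0.13 and 0.61 ± 0.07 on the log2 scale (edgeR adjusted p of 0.0016 and 3.09e-04). DDB2 is the member with the perfect pair of half-sites printed above. RRM2B, the p53-induced ribonucleotide reductase subunit, rose with 0.44 ± 0.10 (adjusted p = 0.00691). The translesion polymerases differed in value: POLH averaged 35.4 ± 3.23 CPM with nitidine chloride and 34.4 ± 1.51 CPM with DMSO and did not pass. POLK, the other one, had 20.1, 13.5 and 18.3 CPM with nitidine chloride and 32.8, 33.6 and 33.1 CPM with DMSO. All treated libraries of POLK were lower, with a log2 fold change of -0.94 ± 0.15 and an edgeR adjusted p of 0.00113. POLK and POLH each share exon positions with a gene on the opposite strand, CERT1 and GTPBP2, and the strand setting of the counting is not given in the sources used here.

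Of genes for metabolism, mitochondria and the lysosome, 3 of 5 rose and 2 did not pass. TP53I3, a quinone oxidoreductase, averaged 13.3 ± 0.68 CPM with nitidine chloride and 5.44 ± 0.95 CPM with DMSO, a log2 fold change of 1.29 ± 0.15 (edgeR adjusted p = 2.34e-04). FDXR, a mitochondrial reductase that passes electrons to ferredoxin, rose with 0.50 ± 0.08 (edgeR adjusted p = 0.00113). TIGAR, a phosphatase that lowers glycolytic flux, rose with 0.44 ± 0.07 (adjusted p = 0.00165). SPATA18, a mitochondrial quality control factor, averaged 3.0 ± 1.14 CPM with nitidine chloride and 3.63 ± 0.77 CPM with DMSO, with an interval of the log2 fold change from -0.96 to 0.44. DRAM1, a lysosomal membrane protein of autophagy, averaged 5.66 ± 1.15 CPM with nitidine chloride and 5.13 ± 0.31 CPM with DMSO, with an interval from -0.27 to 0.55. For these 2 genes the intervals still hold changes of moderate size.

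In the remaining group, of signalling, RNA-binding and other genes, 3 of 4 tested members rose. EPHA2, an ephrin receptor kinase, averaged 66.7 ± 4.55 CPM with nitidine chloride and 37.1 ± 2.20 CPM with DMSO, a log2 fold change of 0.85 ± 0.08 (edgeR adjusted p = 1.07e-04). ZMAT3, an RNA-binding splicing regulator, rose with 0.42 ± 0.10 (adjusted p = 0.00849). RAP2B, a small GTPase, had 71.5, 75.1 and 66.4 CPM with nitidine chloride and 53.7, 55.5 and 58.9 CPM with DMSO. Its libraries did not overlap, and its log2 fold change was 0.34 ± 0.07 (edgeR adjusted p = 0.00612). TP53I11 had 68.8, 53.4 and 81.0 CPM with nitidine chloride and 58.5, 37.6 and 62.0 CPM with DMSO, a value of 0.36 ± 0.21 that did not pass (adjusted p = 0.192). Replicate 2 was the lowest of TP53I11 in both groups, and with a replicate block its adjusted p was 0.0175. TRIM22, an interferon-inducible ubiquitin ligase, had 1, 1 and 0 counts with nitidine chloride and 0 in every DMSO library.

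**Figure D3:**
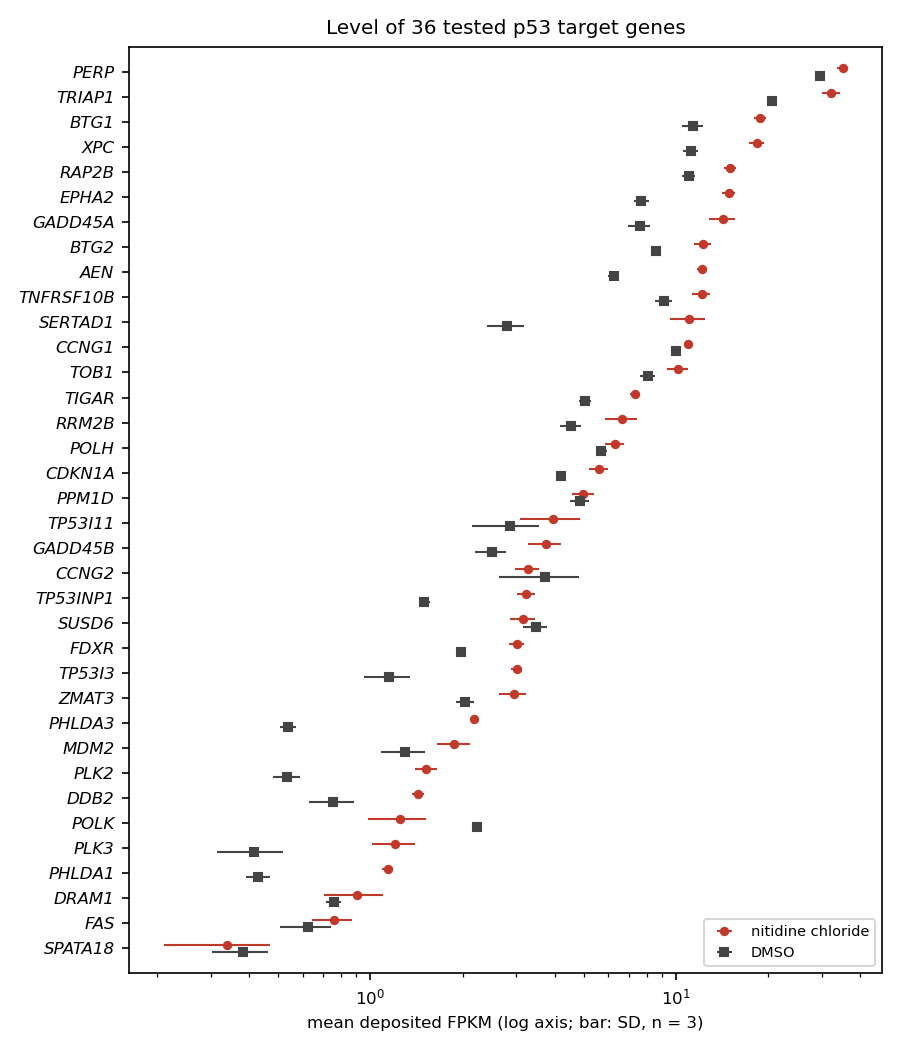
The plot of levels gives the mean deposited FPKM of the 36 tested genes on a log axis (bars are SD, n = 3), with nitidine chloride above DMSO for each gene. PERP and TRIAP1 are the highest in both groups and SPATA18 the lowest, and SERTAD1 moves most in rank.

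Levels between genes were compared per length, in the authors' FPKM, which are not TMM scaled. PERP was first with 35.0 ± 1.42 FPKM with nitidine chloride and 29.6 ± 0.64 FPKM with DMSO, followed by TRIAP1 with 32.1 ± 2.16 FPKM with nitidine chloride and 20.6 ± 0.70 FPKM with DMSO. BTG1 and XPC came next at 18.8 ± 0.84 and 18.4 ± 1.03 FPKM with nitidine chloride, a difference within their spread, and at 11.3 ± 0.87 and 11.2 ± 0.64 FPKM with DMSO. EPHA2, GADD45A and RAP2B, at 14.9, 14.2 and 15 FPKM with nitidine chloride, also lay within each other's spread. CDKN1A was in place 17 in both groups, with 5.57 ± 0.39 FPKM with nitidine chloride and 4.19 ± 0.11 FPKM with DMSO. SERTAD1 held place 11 with nitidine chloride and place 21 with DMSO. The 6 members that rose at least 2-fold had 0.416 to 2.80 FPKM with DMSO, where the 18 others that rose had 0.756 to 20.6 FPKM. MDM2, at 1.88 ± 0.23 FPKM with nitidine chloride and 1.3 ± 0.21 FPKM with DMSO, was in place 28 with nitidine chloride and 27 with DMSO.

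The choice of genes did not use genomic span, the distance from start to end with introns. Spans of tested members ran from 2.14 to 276.2 kb, and the median was 21.2 kb for tested members and 27.3 kb for all tested genes. Change varied with span across the transcriptome, so each class is given beside its background. Under 20 kb, 15 of 18 members rose, 0 fell and the median log2 fold change was 0.58, where 35.8% of the 6758 genes of that class rose, 8.8% fell and their median was 0.22. Between 20 and 50 kb, 8 of 11 members rose and 0 fell, with a median of 0.44, where 30.8% of 3875 genes rose, 12.2% fell and the median was 0.13. Between 50 and 100 kb, ZMAT3 rose and POLK fell of 4 members, where 10.5% of 2535 genes rose and 39.8% fell. At 100 kb or more, SUSD6, DRAM1 and CCNG2 did not pass, where 80.4% of 2785 genes fell, 2.12% rose and the median was -1.10. The 6 members that rose at least 2-fold spanned 4.43 to 8.49 kb, from SERTAD1 to PHLDA1. How far span accounts for the values of the members was not tested.

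**Figure D4:**
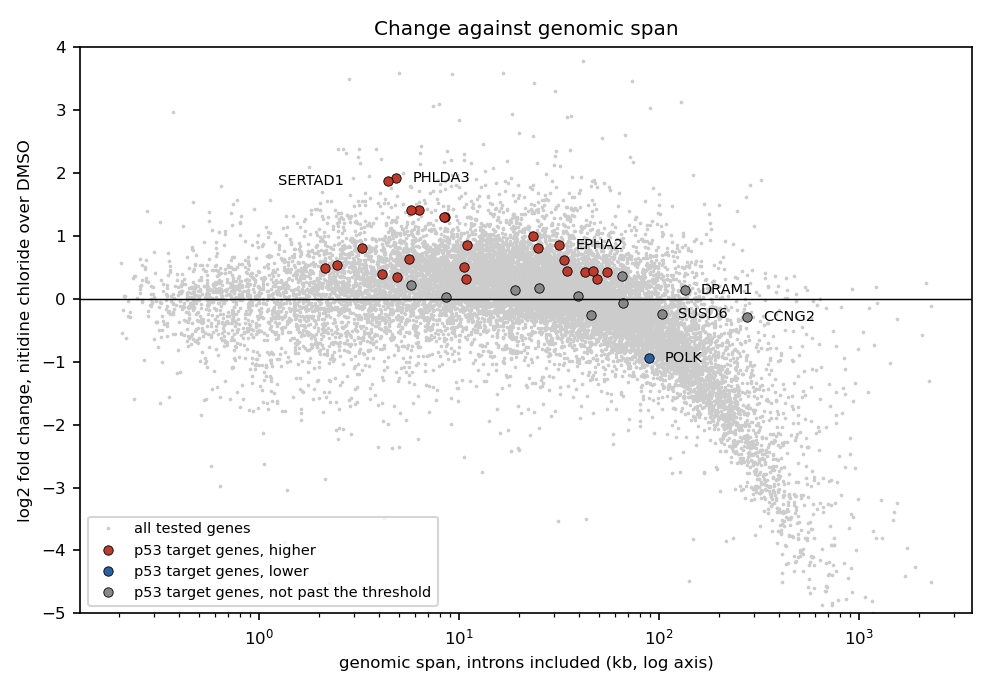
The plot of change against span gives log2 fold change, nitidine chloride over DMSO, by genomic span in kb on a log axis for 15953 tested genes (grey dots) and the 36 p53 target genes (coloured by call). The members lie mostly above 0 under 50 kb, and 19 genes beyond -5 or 4 are not drawn.

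The positions of the genes printed most fully, as the table gives them, are these. PHLDA3 (ENSG00000174307) lies on chromosome 1 from 201464383 to 201469237 and SERTAD1 (ENSG00000197019) on chromosome 19 from 40421592 to 40426025. CDKN1A (ENSG00000124762) lies on chromosome 6 from 36676460 to 36687339, MDM2 (ENSG00000135679) on chromosome 12 from 68808172 to 68850686, and POLK (ENSG00000122008) on chromosome 5 from 75511756 to 75601144. The exons of 10 tested members overlap those of another counted gene, in each case on the opposite strand: POLK, POLH, FAS, TOB1, TNFRSF10B, TP53I11, MDM2, XPC, BTG1 and TP53I3. Their counts are uncertain to that extent. Of the other 26 tested members, 19 rose and 0 fell, a count added after the data had been seen. Over all tested genes, with or without such overlap, 24.7% rose and 27.0% fell.

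A related list, of the p53 family and its regulators, had 13 of 26 tested genes lower, 5 higher and 8 not passing, and a median log2 fold change of -0.40. Over all tested genes, 24.7% were higher and 27.0% lower, with a median of 0.01. COP1, a ubiquitin ligase of p53 that spans 262.7 kb, fell to 9.34 CPM with nitidine chloride, against 49.8 CPM with DMSO, a log2 fold change of -2.41 ± 0.12. HIPK2, a kinase that phosphorylates p53 (216.2 kb), fell with -1.83 ± 0.05. TP53RK, a small kinase named for p53, rose with 0.77 ± 0.10, though it overlaps SLC13A3 on the same strand. The long spans of COP1 and HIPK2 place both in the class where 80.4% of genes fell. Of the genes of this list that fell, all but MDM4 (41.74 kb) span over 50 kb, and most span over 100 kb. Between 50 and 100 kb, 39.8% of all genes fell. How far span accounts for the counts and median of this list was not tested.

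Other p53 targets of apoptosis had 3 of 10 tested higher, 1 lower and 6 not passing, with a median of 0.18. The higher share is near the 24.7% of all tested genes. TNFRSF10C, a decoy receptor of TRAIL, had 0.82 ± 0.27 at 2.52 CPM with nitidine chloride and 1.43 CPM with DMSO, and its edgeR adjusted p of 0.0338 was 0.0791 with DESeq2 and 0.0782 with a replicate block. It was also between 0.0502 and 0.112 without any single DMSO library and 0.0975 without nitidine chloride replicate 3. PIDD1, a scaffold for caspase-2 that overlaps RPLP2 and PANO1 on the opposite strand, rose with 0.76 ± 0.09, and APAF1, the core of the apoptosome, fell with -0.70 ± 0.13. BBC3, the remaining gene of this list called higher, rose with 0.52 ± 0.13 (edgeR adjusted p = 0.0105). BAX, a pore-forming BCL2 protein, was at 60.9 CPM with nitidine chloride and 57.4 CPM with DMSO and did not pass (edgeR adjusted p = 0.40).

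Targets of growth control, repair and other roles had 15 of 28 tested higher, 7 lower and 6 not passing, with a median of 0.51. All tested genes had 24.7% higher and 27.0% lower, and the lower share of this list is near that 27.0%. LIF, a cytokine, had the highest value, 2.31 ± 0.40, from 2.78 ± 0.79 CPM with nitidine chloride and 0.551 ± 0.33 CPM with DMSO. SESN2, a sestrin that restrains mTORC1 and is shared with the ATF4 response, rose with 1.51 ± 0.06. ASCC3, a helicase spanning 373.2 kb, fell with -2.54 ± 0.08 and CYFIP2, an actin regulator spanning 129.5 kb that overlaps ADAM19 on the opposite strand, with -1.08 ± 0.09. Cell-cycle genes known to be repressed through p21 and the DREAM complex numbered 24 tested, of which 8 fell, 2 rose and 14 did not pass, and their median was -0.14. The share that fell is close to the 27.0% of all tested genes, while 24.7% of all tested genes rose. All 24 but CDC25C (53.09 kb) span under 50 kb. In those classes fewer genes fell, 8.8% under 20 kb and 12.2% between 20 and 50 kb. Neither this count nor the part of span in it was tested. BUB1, a spindle checkpoint kinase, fell with -0.72 ± 0.06 and AURKA, a mitotic kinase, with -0.57 ± 0.06, whereas E2F1, an S-phase transcription factor, rose with 0.34 ± 0.07. MAD2L1, another checkpoint gene, was called higher with 0.17 ± 0.06 (edgeR adjusted p = 0.0336), a call that was lost with no filter on low counts (0.0632), with a replicate block (0.0804) and without any single library other than nitidine chloride replicate 2 (0.0704 to 0.13).

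**Figure D5:**
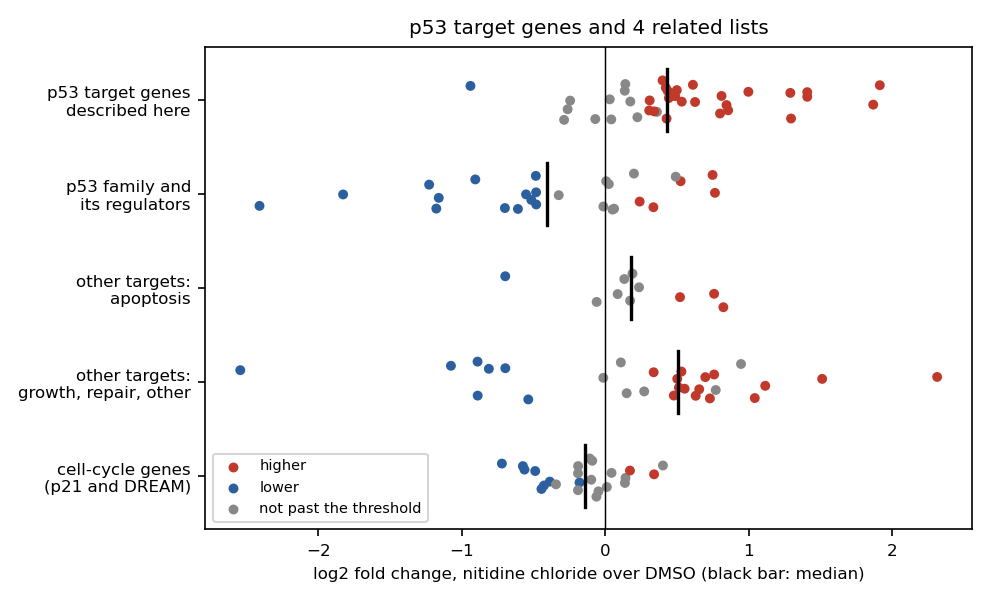
The plot of lists gives log2 fold change, nitidine chloride over DMSO, for the 36 tested p53 target genes and 4 related lists (points are genes, coloured by call, and black bars are medians). The medians are 0.43 for the p53 target genes, -0.40 for regulators of p53, 0.18 and 0.51 for the lists of other targets, and -0.14 for the cell-cycle genes.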

How the data were processed

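RNA of HEK-293T cells was sequenced in 3 nitidine chloride and 3 DMSO libraries, grouped by the treatment label. The deposited table holds 2 units for each gene and library, per the file headers: read counts, which are whole numbers, and FPKM, which the authors scaled to gene length and library total. The submitters' processing notes list HISAT2 2.0.4 and StringTie 1.3.0, with no role for either. Not given in the sources used here: read counter, strand setting, genome build and annotation. Gene positions were the same as in GENCODE release 29 for 47488 of 50111 shared gene identifiers, and for 35 of 38 members. Exon overlaps come from that release.

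Genes averaging 10 or more counts were tested with edgeR 4.0.16 (R 4.3.3): TMM scaling, quasi-likelihood test without other covariates, Benjamini-Hochberg adjustment over all tested genes, two-sided, threshold 0.05. CPM were computed here from the counts. The SE is the log2 fold change divided by the root of F. CPM and FPKM are given as mean ± SD, n = 3, and log2 fold changes as value ± SE. The test was also run on simulated counts in which few genes changed, unlike in these data. That run cannot show how the scaling does here, and its outcome is not given. Alternatives were library-size scaling, DESeq2 1.42.0, voom (limma 3.58.1), other count filters, a replicate block, stricter thresholds and each library left out. Plots used matplotlib 3.10.9.

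Members and lists were chosen with earlier results of these data known, so no list was tested. Named by rule are, among members past the threshold, the top 5 and bottom 5 by fold change, CDKN1A and MDM2, and of each related list up to 2 genes per direction with the most extreme values. A result on 1 gene that the rule names is not reported here. CCNG2, TP53I11, BAX, BBC3, MDM4 and CDC25C are outside this rule, and were chosen after their values were seen. Roles were also assigned after that.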

Additional observations from a re-analysis of the deposited data

How the results depend on the processing

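The median log2 fold change of the tested members lay between 0.379 and 0.538 in every fit, and no member that passed changed direction. Over 12 alternative fits, leaving aside the stricter thresholds, 28 of 36 members kept their side of the threshold. The exceptions are CDKN1A, MDM2, GADD45B, TNFRSF10B, TOB1, PERP, CCNG2 and TP53I11, whose values stand in the report. SPATA18, with a mean of 47.17 counts, was not in the fit that required a mean of 50 and was judged over the others. With single libraries left out, 21 to 24 members were higher and 1 to 2 lower, the second being CCNG2. A test against a 1.5-fold change left 9 members higher and 1 lower, POLK. Separately, with members whose exons overlap another gene left out, an alternative chosen after seeing the data, 0 were lower. Over all tested genes, 3936 were higher and 4314 lower. These counts were 750 and 2083 in the test against a 1.5-fold change, and 2616 were higher at an adjusted p of 0.01. With scaling by library total, 57.9% of the calls were higher, against 47.7% with TMM scaling.

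The lists held 26 tested regulators of p53, 10 apoptosis targets, 28 other targets and 24 p21 and DREAM genes. In the test against a 1.5-fold change, regulators of p53 had 0 higher and 6 lower, and apoptosis targets 0 and 0. Other targets had 3 and 4, and p21 and DREAM genes 0 and 1. Of all 15953 tested genes, 750 were higher and 2083 lower in that test. At an adjusted p of 0.01 the higher counts were 2 for regulators, 1 for apoptosis targets and 1 for p21 and DREAM genes. Over all tested genes it was 2616. With scaling by library total, 6 apoptosis targets were higher. With a replicate block 3 regulators and 1 of the p21 and DREAM genes were higher, and with no filter on low counts again 1 of the p21 and DREAM genes. With single libraries left out, higher counts were 3 to 6 for regulators, 2 to 3 for apoptosis targets, 15 to 17 for other targets and 1 to 3 for p21 and DREAM genes.

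The labels share replicate numbers, but same-numbered libraries did not deviate together (correlations of 0.00138, -0.055 and 0.0403). With 3 libraries per group this cannot show whether they were paired by design, so the block is given as an alternative only. Depth limits genes of few counts, such as SPATA18, DRAM1 and FAS, whose intervals are wide. The alternatives for a table without counts were not run. The cause of these differences was not tested.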
